A study of Danio rerio with 3 samples.

Results

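The lens crystallin genes were measured in whole zebrafish embryos after knockdown of slc2a10. The genes were taken from GEO's probe annotation, as all symbols that begin with crya, cryb or cryg, and cryptochromes were left out. The choice went by names only, but it and the gene lists below were chosen with earlier results of these data known. It gave 37 genes with 50 probes, of 15548 named genes with 23717 probes in all. Embryos of wild type strain Ab received, by injection, an antisense morpholino (MO), a synthetic oligomer that blocks splicing or translation. One set received 7.5 ng of an MO against the exon 2 splice donor of slc2a10, which encodes the glucose transporter GLUT10, and the other set received 5 ng of a control MO. At 48 hours post fertilization each of 3 slc2a10 MO replicates, of 10 to 15 embryos, was set against 1 pool of control MO RNA on its own 2-colour array, after linear T7 amplification. The slc2a10 MO embryos had been sorted for a recognizable phenotype, so the groups differed in MO target, MO dose and sorting together.

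Crystallins are the soluble proteins that fill the fibre cells of the eye lens and give it its refractive power. The alpha crystallins belong to the small heat shock proteins and act as chaperones, while the beta and gamma crystallins form a separate superfamily of structural proteins. Fish lenses hold in addition a large set of methionine-rich gamma M crystallins, and crystallin transcripts accumulate as lens fibre cells elongate in the embryo. In whole embryos, a change in the number of lens fibre cells and a change in crystallin RNA per cell cannot be told apart.

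The injected oligomers are shown because they define the groups. Both run 5′ to 3′, and the capitals mark the 6 letters ACTTAC, the reverse complement of GTAAGT, the consensus letters of a splice donor, which begin at base 13 of 23 of the slc2a10 MO. The control MO does not hold all of them in a row, but it holds the same letters without the first, CTTAC, which are not marked.
slc2a10 MO: caaataaagtccACTTACttggt
control MO: cctcttacctcagttacaatttata

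The deposited values were 1 log ratio of both dyes per probe and array, read as log2. Over all probes, replicate 2, the dye-swapped array, correlated at -0.65 and -0.69 with replicates 1 and 3, which correlated at 0.48 with each other. The sign of replicate 2 was therefore turned. No source used here states which dye is on top of the ratio, so no value below can be read as a rise or a fall in the knockdown. Positive values lie on the side of slc2a10 itself, whose probe gave 0.50, 0.42 and 0.47 on replicates 1, 2 and 3. The slc2a10 MO samples carried Cy3 on replicates 1 and 3 and Cy5 on replicate 2. If Cy5 is the numerator, a positive value means more RNA in the control pool, and if Cy3 is the numerator, more RNA in the knockdown. Means are given ± SD over the 3 arrays. A gene is called where limma's Benjamini-Hochberg adjusted p over all named genes is under 0.05. The pool is 1 sample on every array, so spread between control embryos does not enter the test. With 3 arrays an exact two-sided sign-flip test cannot go below 0.25, so calls rest on limma's pooled estimate of spread. Signal above background and saturation are unknown for every probe, so levels in the lens could not be checked.

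Of the 37 crystallin genes 16 were called (43.2%), of which 14 had positive and 2 had negative means. Over all named genes the share called was 19.3%, with 11.1% positive, here termed the slc2a10 side, and 8.16% negative, termed the opposite side. The median of the crystallin means was 0.12, against 0.0066 over all named genes, and 31 of the 37 lay above 0. At least 1.5-fold was reached by 4 called crystallins, all of them gamma M genes, and 1.91% of all named genes were called at that size. By subfamily, the calls were 8 of 15 gamma M genes, 4 of 5 acidic beta genes, 1 of 5 basic beta genes, 1 of 2 gamma N genes, 1 of 4 gamma S genes, 1 of 3 other beta-gamma genes and 0 of 3 alpha genes. Tested as single probes over the whole table, 23 of 50 crystallin probes were called, 19 with positive and 4 with negative means. Of all probes 11.7% were called, 6.18% positive and 5.49% negative. All probes include 19886 without a gene symbol. In a fit of only the 23717 probes with a symbol, 24 crystallin probes were called, 19 positive and 5 negative. Of all probes in that fit 4247 were called, 2357 positive and 1890 negative.

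**Figure D1:**
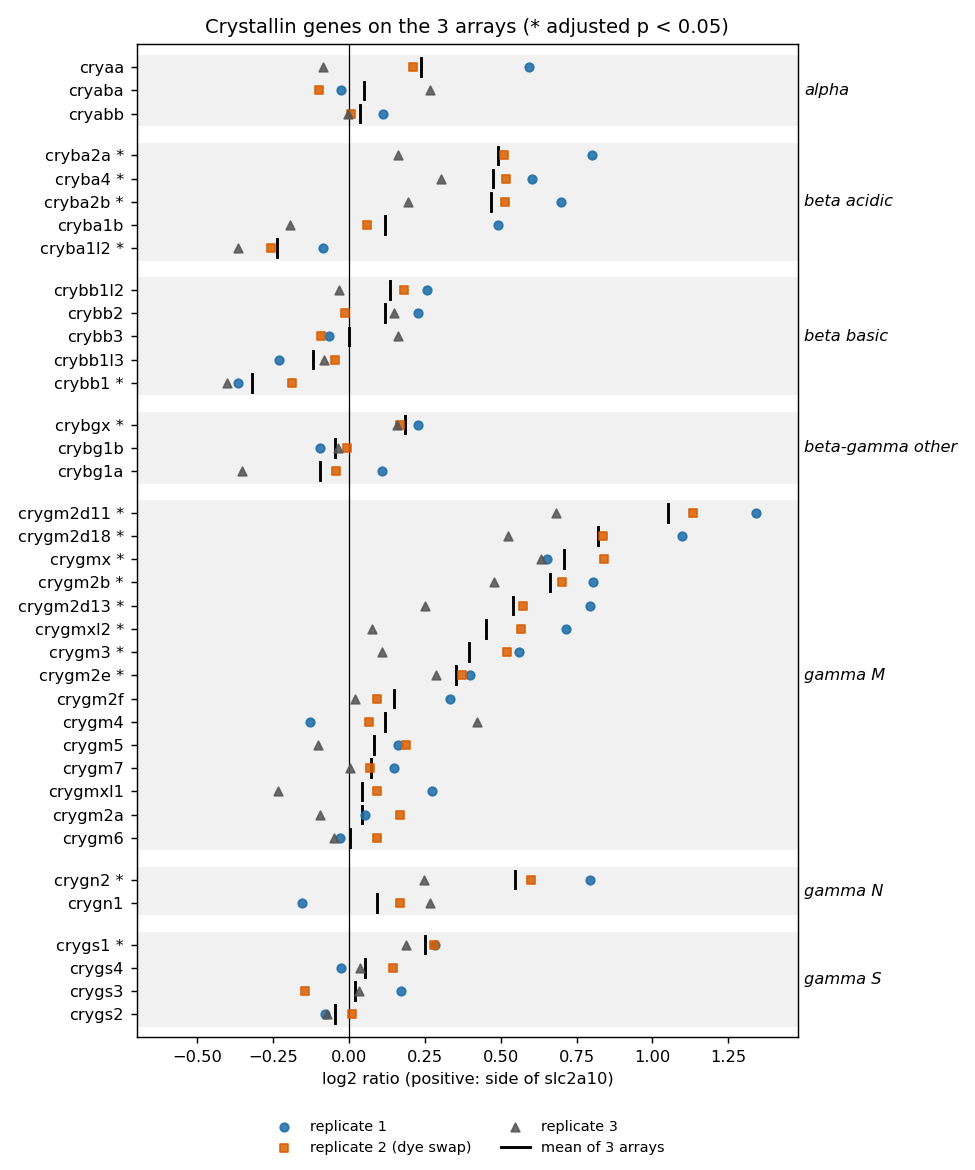
Log2 ratio (horizontal axis, positive on the side of slc2a10) of each of the 37 crystallin genes on the 3 arrays, with bars at the mean and an asterisk for genes with a limma adjusted p under 0.05. The gamma M genes all have means above 0, up to 1.05 for crygm2d11, and replicate 1 lies to the right of replicate 3 in all 14 genes called on the slc2a10 side.

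The gamma M crystallins held the largest differences of the family. All 15 had means above 0, from 0.0037 to 1.05, and all 8 called genes lay on the slc2a10 side. Crygm2d11 came first, with log2 ratios of 1.34, 1.13 and 0.68 on replicates 1, 2 and 3. Its mean of 1.05 ± 0.34 was a 2.07-fold difference (adjusted p = 0.00060) and ranked 34 among all 15548 named genes on that side. It is the only crystallin that passed 2-fold. Crygm2d18 gave 1.098, 0.84 and 0.53 (0.82 ± 0.29, 1.77-fold, adjusted p = 0.0010). Crygm2d13, a further copy of the same tandem family, gave 0.79, 0.57 and 0.25 (0.54 ± 0.27, 1.45-fold, adjusted p = 0.0055). All 3 copies thus lay on one side on every array, with replicate 3 lowest each time.

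Crygmx and crygm2b differed by a similar size with a smaller spread. Crygmx gave 0.65, 0.84 and 0.63 (0.71 ± 0.11, 1.63-fold), with the smallest adjusted p of the family at 0.00025. Crygm2b gave 0.81, 0.70 and 0.48 (0.66 ± 0.17, 1.58-fold, adjusted p = 0.00064). Crygmx was the only called crystallin on the slc2a10 side in which replicate 2 was highest. The other called gamma M genes were crygmxl2 with a mean of 0.45 ± 0.33, crygm3 with 0.40 ± 0.25 and crygm2e with 0.35 ± 0.06. Without replicate 2 the calls of crygmxl2 and crygm3 were lost (means 0.40 and 0.33, adjusted p = 0.062 and 0.066).

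The remaining gamma M genes were close to 0. Crygm6 gave -0.031, 0.093 and -0.051 and crygm2a gave 0.053, 0.17 and -0.096, so neither kept 1 sign over the arrays. Crygmxl1 spread from 0.27 on replicate 1 to -0.23 on replicate 3, with 0.092 on replicate 2. The means of crygm2f, crygm4, crygm5 and crygm7 were 0.15, 0.12, 0.082 and 0.074, and none was called. Crygm4 differed from most of the family in that replicate 3 was highest (0.42) and replicate 1 lowest (-0.13).

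The gamma N and gamma S crystallins each held 1 called gene. Crygn2 gave 0.79, 0.60 and 0.25 (0.55 ± 0.28, 1.46-fold, adjusted p = 0.0055), while its paralog crygn1 had a mean of 0.093 ± 0.22 and was not called. Without replicate 1 the mean of crygn1 was 0.22 and it was called (adjusted p = 0.033). Gamma S is among the gamma crystallins of the adult lens in mammals. Crygs1 had a mean of 0.25 ± 0.05 (1.19-fold, adjusted p = 0.013), with a call that was lost without replicate 2 (mean 0.24, adjusted p = 0.11). Crygs4 gave -0.025, 0.14 and 0.037. Crygs3 gave 0.17, -0.15 and 0.033, and crygs2 gave -0.079, 0.0096 and -0.074. These 3 gamma S genes crossed 0 between arrays.

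Acidic and basic beta crystallins, whose products associate into oligomers in the lens, did not show one pattern. Among the acidic genes, cryba2a gave 0.80, 0.51 and 0.16 (0.49 ± 0.32, 1.41-fold, adjusted p = 0.014) and its paralog cryba2b 0.70, 0.51 and 0.19 (0.47 ± 0.25, adjusted p = 0.0081). Cryba4 gave 0.60, 0.52 and 0.30 (0.48 ± 0.15, adjusted p = 0.0023). All 3 lay on the slc2a10 side on every array. Cryba1l2 lay on the opposite side at -0.087, -0.26 and -0.37 (-0.24 ± 0.14, adjusted p = 0.037). Its call was lost without replicate 2 (-0.23, adjusted p = 0.17), without replicate 3 (-0.17, adjusted p = 0.16) and with dye order as a term (-0.24, adjusted p = 0.067). Cryba1b had a mean of 0.12 ± 0.35 and was not called.

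Of the basic beta genes only crybb1 was called, on the opposite side. It gave -0.37, -0.19 and -0.40 (-0.32 ± 0.11, 1.25-fold, adjusted p = 0.0080), all below 0. Crybb1l3 gave -0.23, -0.047 and -0.081, and crybb1l2 gave 0.26, 0.18 and -0.034. Crybb2 gave 0.23, -0.015 and 0.15, and crybb3 gave -0.065, -0.092 and 0.16. Of these 4 uncalled genes, crybb1l3 alone kept 1 sign on the 3 arrays.

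No alpha crystallin was called. Cryaa, which encodes the alpha A chaperone of the lens, gave 0.59, 0.21 and -0.087 (mean 0.24, 95% interval -0.015 to 0.49, adjusted p = 0.18). Without replicate 3 its mean was 0.40 and it was called (adjusted p = 0.017). The alpha B paralogs had narrower intervals. Cryaba gave -0.026, -0.098 and 0.27 (mean 0.048, interval -0.12 to 0.22), and cryabb gave 0.11, 0.0052 and -0.0028 (mean 0.038, interval -0.085 to 0.16). Their intervals do not reach the size of crygm2b or crygmx. Mammalian alpha B crystallin is also made in muscle and other tissues outside the lens.

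The other beta-gamma genes carry a crystallin name but are not all lens proteins. Crybgx gave 0.23, 0.17 and 0.16 (0.18 ± 0.04, adjusted p = 0.040). The call of crybgx was lost in each fit that left out 1 array (means 0.16 to 0.20, adjusted p from 0.085 to 0.21) and with dye order as a term (0.18, adjusted p = 0.14). Crybg1a and crybg1b are the relatives of human CRYBG1, which is not a lens crystallin. Crybg1a gave 0.11, -0.044 and -0.35, and crybg1b gave -0.094, -0.0059 and -0.037, and neither was called. Without these 2 genes, 16 of 35 crystallins were called.

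Among all 21 uncalled crystallins, means ran from -0.12 to 0.24. The 95% limma interval of each of them stayed within 1.5-fold (0.585 on the log2 scale) in both directions, with the farthest bound at 0.49. These intervals rest on limma's pooled estimate of spread, so they do not exclude 1.5-fold for genes that varied widely. Cryaa (SD 0.34) and cryba1b (SD 0.35) varied most among them, and cryaa reached 0.59 on replicate 1.

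**Figure D2:**
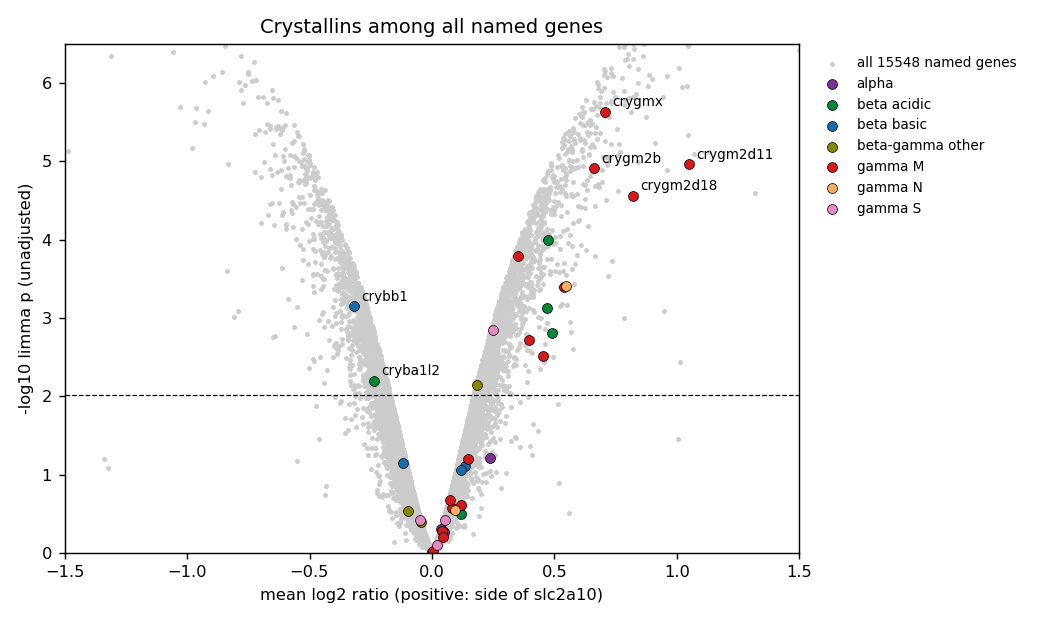
Mean log2 ratio (horizontal axis) against -log10 of the unadjusted limma p (vertical axis) for all named genes in grey and the crystallins coloured by subfamily; the dashed line is the largest p that passed adjustment, and genes beyond the axes are not drawn. Crygm2d11, crygm2d18, crygmx and crygm2b lie at the right, and crybb1 and cryba1l2 are the 2 called crystallins at the left.

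Where a gene had several probes, they could be set against each other. This held for 8 genes with 21 probes, and 29 genes had a single probe. All 5 probes of cryba2a were called, with means from 0.45 to 0.54. All 4 probes of crybb1 were called on the opposite side, from -0.45 to -0.26, so its sign did not come from 1 probe. Both probes of cryba4 (0.41 and 0.54) and of crygs1 (0.21 and 0.29) were called. The probes of cryabb (-0.034 and 0.11) and of crybg1b (-0.14 and 0.053) differed in sign, and none of these was called. As single probes, those of cryba1l2 and crybgx did not pass (adjusted p = 0.055 and 0.076).

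**Figure D3:**
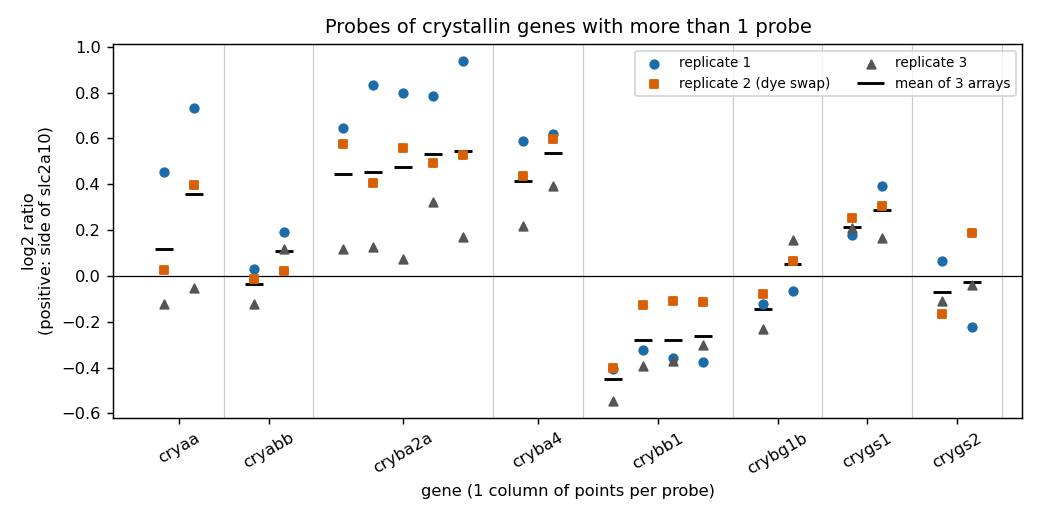
Log2 ratio (vertical axis, positive on the side of slc2a10) on each of the 3 arrays for every probe of the 8 crystallin genes with more than 1 probe, with bars at the probe means. All 5 cryba2a probes are above 0 with replicate 3 lowest, and all 4 crybb1 probes are below 0 on every array.

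Neighbouring crystallin genes did not always differ alike. By gene order in the RefSeq table of the GRCz12tu assembly, 12 pairs of measured crystallins follow each other with no other protein-coding gene between them. Both genes had called positive means in 3 pairs, and 1 pair held a called gene of each sign. That pair was crybb1 and cryba4, a basic and an acidic beta gene. Cryba4 exceeded crybb1 by 0.97, 0.71 and 0.71 on replicates 1, 2 and 3, a mean difference of 0.79 ± 0.15. The second beta pair, cryba1l2 and crybb1l2, also had means of different sign, and crybb1l2 was higher by 0.34, 0.44 and 0.33 (0.37 ± 0.06). Here the acidic gene was the lower one. The pairs were singled out after their values were seen, and the differences within them were not tested.

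The largest group of crystallin genes lying close together holds 34 in the assembly, of which 14 were measured. Unlike in the pairs above, single other protein-coding genes lie between some members. Of these 6 were called, each with a positive mean, and of the 23 crystallins elsewhere 10 were called. Both shares are close to the 43.2% called among all 37 crystallins, against 19.3% of all named genes. Called and uncalled genes were mixed within the group. Crygm2b exceeded its neighbour crygm2a by 0.75, 0.53 and 0.57 on the 3 arrays, although crygm2a lies between 2 called genes, crygm2b and crygm2e. The assembly names 21 crygm2d copies and the array 3. Near-identical copies can hybridise to 1 probe, and probe sequences were not used here, so the values of the crygm2d genes may each stand for several copies.

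The crystallins varied more between arrays than the median gene. Their median SD over the arrays was 0.16, against 0.089 over all named genes. Among the 14 crystallins called on the slc2a10 side it was 0.25, against 0.089 for all 1728 genes called there. In 13 of these 14 replicate 1 was highest and replicate 3 lowest (92.9%), an order found in 31.8% of all genes called on that side. Among all 37 crystallins, called or not, 22 had this order (59.5%), against 25.5% of all named genes. The 14 crystallins and the 1728 genes were not matched for the size of the mean. Limma draws the spread of each gene toward that of the other genes. For genes with a large SD, its p-values and intervals therefore rest on a smaller spread than their own. Across the 37 genes, the values correlated at 0.90 between replicates 1 and 2, 0.76 between 2 and 3 and 0.60 between 1 and 3. Over all named genes the same pairs correlated at 0.74, 0.77 and 0.57. The crystallin correlations are a description over genes that share the control pool and partly share sequence.

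Replicates 1 and 3 had the same dye order and the same pool. Their difference compares 2 sets of slc2a10 MO embryos, each on its own array. Variation between embryos and between arrays cannot be told apart in this difference. The median of replicate 1 minus replicate 3 was 0.15 over the crystallins and 0.020 over all named genes. Of the 37 crystallins 12 were in the top 5% of all genes for this difference, and 6 were in the top 1%. At the other end 3 crystallins were in the bottom 5%, namely crygm4 (-0.55), crygn1 (-0.42) and cryaba (-0.29), with replicate 3 the higher array. Cryba1b (0.68) and cryaa (0.68) led, followed by crygm2d11 (0.66), cryba2a (0.64), crygmxl2 (0.64) and crygm2d18 (0.57). Cryaa and cryba1b, which were not called, thus differed between these 2 replicates as much as the called genes did. The slc2a10 probe showed no such gap, with 0.50 and 0.47. The difference was noticed in these data and was not tested. No source used here gives signal depth or RNA quality per array.

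**Figure D4:**
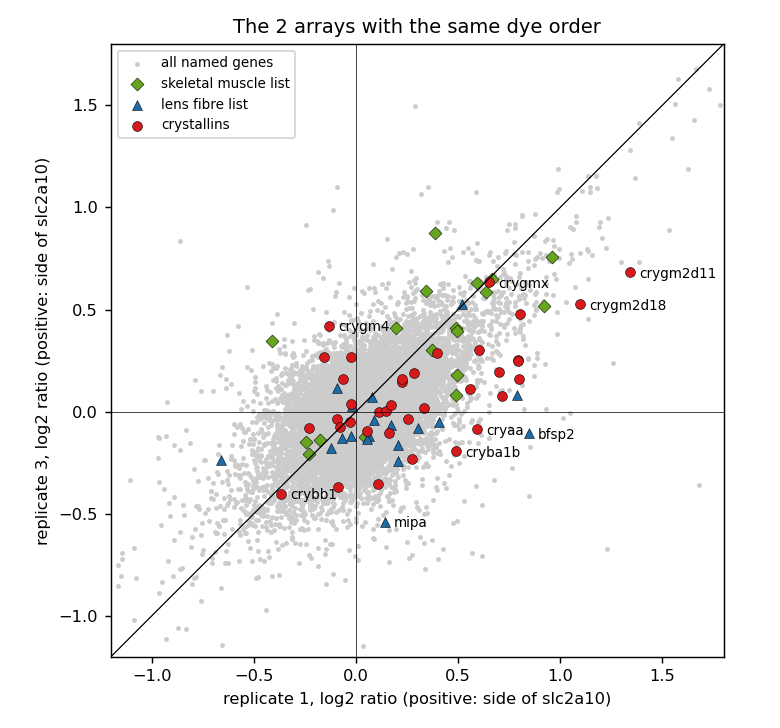
Log2 ratio on replicate 1 (horizontal axis) against replicate 3 (vertical axis), both positive on the side of slc2a10, for all named genes in grey, crystallins, lens fibre genes and skeletal muscle genes, with a line at equal values; genes beyond the axes are not drawn. Most crystallins and lens fibre genes lie below the line, such as crygm2d11 (1.34 and 0.68) and bfsp2 (0.85 and -0.11), and crygm4 lies above it.

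Other genes of lens fibre cells were measured on the same arrays. The 24 listed genes of lens fibre cells were mostly for membrane, junction or cytoskeletal proteins. Of these 24 genes 19 were measured and 3 were called (15.8%, against 19.3% of all named genes), 2 with positive means and 1 negative. The median of the list was -0.0085. The called genes were lgsn, which encodes lengsin (0.79, 0.45 and 0.083, mean 0.44 ± 0.35, adjusted p = 0.029), the transporter gene slc16a12b (0.45 ± 0.12, adjusted p = 0.0020) and the ephrin receptor gene epha2a (-0.45 ± 0.21, adjusted p = 0.0057). The call of lgsn was lost without replicate 1 (0.27, adjusted p = 0.052) and without replicate 2 (0.44, adjusted p = 0.053). The beaded filament gene bfsp2 gave 0.85, 0.51 and -0.11 and the water channel gene mipa 0.14, 0.012 and -0.54, and neither was called. Without replicate 3 the number called in this list rose to 6, 5 with positive means and 1 negative. Over all named genes it fell from 2996 to 2527 in that fit. The median of replicate 1 minus replicate 3 was 0.18 in this list, and 7 of its 19 genes were in the top 5% and 1 in the bottom 5%.

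Of 20 listed transcription factor genes with roles in lens and eye development 16 were measured and 10 called (62.5%, against 19.3% of all named genes), 7 with positive means and 3 negative. Prox1a, whose product drives fibre cell differentiation and crystallin expression in mammals, had the largest mean at 0.65 ± 0.17 (0.66, 0.82 and 0.48, adjusted p = 0.00068). The eye field genes six3a (0.42 ± 0.13), six3b (0.39 ± 0.09), pax6b (0.40 ± 0.09) and pax6a (0.19 ± 0.07) lay on the same side, with sox1a (0.37 ± 0.04) and meis2a (0.28 ± 0.05). Opposite were meis1a (-0.44 ± 0.13), mafbb (-0.43 ± 0.08) and sox2 (-0.20 ± 0.06). Without replicate 2 the calls of pax6a (mean 0.18, adjusted p = 0.25), sox2 (-0.20, 0.19) and meis2a (0.27, 0.067) were lost. Those of pax6a and sox2 were also lost without replicate 1 (means 0.16 and -0.17, adjusted p = 0.099 and 0.081) and with dye order as a term (0.19 and -0.20, adjusted p = 0.12 and 0.11), and that of sox2 without replicate 3 (-0.23, adjusted p = 0.053). Most of these genes also act in retina or brain. The lens genes foxe3 (0.020) and hsf4 (0.13) were not called. In this list the median of replicate 1 minus replicate 3 was 0.13, with 13 of 16 genes above 0, against 8503 of all 15548 named genes. For that difference 2 of the 16 were in the top 5% of all genes and 0 in the bottom 5%.

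Genes related to crystallins by name or family went both ways. Of 3 measured enzyme genes that carry a crystallin name in other families, cryzl1 was called at 0.20 ± 0.09 (adjusted p = 0.038) and crym, encoding a thyroid hormone binding protein, at -0.26 ± 0.05 (adjusted p = 0.0099), while cryl1 was at 0.013. Both calls were lost without replicate 2 (adjusted p = 0.16 and 0.059), and that of cryzl1 also without replicate 1 (0.10) and with dye order as a term (0.12). Among 8 small heat shock protein genes, the family of the alpha crystallins, 4 were called (50%, against 19.3% of all named genes), 3 with positive means and 1 negative. Hspb3 (0.48 ± 0.03) and hspb6 (0.32 ± 0.03) had nearly equal values on the 3 arrays, and hspb9 had 0.65, 2.00 and 3.02, with its lowest value on replicate 1, unlike the called crystallins on that side. With robust eBayes hspb9 was not called (adjusted p = 0.22). Hspb1 was opposite at -0.28, -0.44 and -0.74.

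Markers of other tissues are given against the same share of 19.3% over all named genes. Of 23 measured photoreceptor genes 6 were called (26.1%), each of the 6 with a positive mean. That share is near the 19.3% called on either side, but above the 11.1% of all named genes called with a positive mean. The list had means from -0.078 to 1.99 and a median of 0.024. Of 18 skeletal muscle genes 14 were called (77.8%), 12 positive and 2 negative, with a median of 0.34 and means from -0.25 to 0.80. Of 16 epidermal genes 8 were called (50%), 5 positive and 3 negative, with a median of 0.054 and means from -0.62 to 1.08. The median of replicate 1 minus replicate 3 was 0.074, 0.034 and -0.024 in these lists, with 17, 10 and 7 genes above 0. In each list 2 genes were in the top 5% for this difference, and 0, 2 and 2 were in the bottom 5%. The part of these tissues in the crystallin values was not tested.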

How the data were processed

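The deposited table held 1 log2 ratio per feature for each of 3 two-colour arrays; the array medians were -0.0016, -0.0075 and -0.0045, and whether the authors centred the ratios is unknown. The largest size was 4.85. The log base is not stated in the sources used here, so log2 was an assumption. With a natural log or log10 the fold differences given would be understated, and the statements at 1.5-fold and 2-fold could change. The submitters' processing notes name Partek, with no version or role. No source used here states the background correction, the normalization or which dye is the numerator.

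Of 43648 features 45 control spots were left out. Symbols came from GEO's platform annotation, updated through the RefSeq gene table of GRCz12tu by Entrez ID (23534 probes) or accession (42), and kept otherwise (141). No crystallin symbol changed, and 19886 probes were unnamed. Each gene was the mean of its probes on that array. Limma 3.58.1 in R 4.3.3 (lmFit, eBayes) tested the 3-array mean against 0 for 15548 named genes and, separately, 43603 probes. The fit was tested on simulated data. The arrays' number limits the precision. No source used here states whether embryo sets came from separate clutches, so p-values speak only for these samples. They rest on limma's estimate, which pools the spread of each gene or probe with that of the others.

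Members and gene lists were chosen with earlier results of these data known. Named were all alpha genes, the 6 highest and 6 lowest beta and gamma genes on each array, other crystallins by their mean, and called genes of the lens lists. The genes bfsp2, mipa, foxe3, hsf4 and cryl1 were added after their values were seen. Alternatives covered the sign of replicate 2, single arrays left out, a dye term, the variance estimate, normalization between arrays and the averaging of probes.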

Additional observations from a re-analysis of the deposited data

How the results depend on the processing

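Of the 16 called crystallins, 11 stayed called in all of 8 alternatives. These were leaving out replicate 1, 2 or 3, a dye term, robust eBayes, quantile normalization, median centring and the median of probes. No called crystallin changed sign, but each had 1 sign on all 3 arrays. Leaving out an array or adding a dye term therefore could not change it. Robust eBayes does not alter a mean, and the median of probes can alter only genes with more than 2 probes. Without replicates 1, 2 and 3 the crystallin count was 16, 11 and 15. Over all named genes 3211, 1556 and 2527 were called in these fits, against 2996 with all 3 arrays. The crystallin probe count was 25, 19 and 20, beside 6593, 2897 and 5187 of all 43603 probes. When 1 array was left out, the median mean was 0.073 to 0.18. With the sign of replicate 2 as deposited, 0 crystallin genes or probes and 0 genes of each lens list were called, 0 of the crystallins at an unadjusted p under 0.05, and 0 of all named genes. By an ordinary t statistic, which has few degrees of freedom here, 0 of each were called and 2 of all named genes, with 9 crystallin genes at an unadjusted p under 0.05. The enzyme list went from 2 calls to 1 with a dye term, where 2221 of all named genes were called. With an array left out it had 0 to 2 calls. The lens fibre list had 2, 2 and 6 calls without replicates 1, 2 and 3, beside the counts over all named genes given above.

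The means of 12 uncalled crystallins changed sign in at least 1 alternative, counting the fit with replicate 2 as deposited. That fit leaves the dye-swapped array unturned, so a change of sign there does not speak to stability. Crygm5, crygn1 and crygs4 changed sign in that fit only. With replicate 2 as deposited, the means were -0.071 for crygm2a, -0.043 for crygm5, -0.058 for crygm6, -0.017 for crygmxl1, -0.018 for crygn1 and -0.044 for crygs4. With a dye term crybb3 had -0.022 and crygs3 -0.022, and with median centring crybb3 had -0.0066 and crygm6 -0.0039. Leaving out 1 array, ranges crossed 0 for cryaba (-0.062 to 0.12), cryba1b (-0.067 to 0.27), crybb3 (-0.079 to 0.048), crybg1a (-0.20 to 0.033), crygm2a (-0.022 to 0.11), crygm4 (-0.033 to 0.24), crygm6 (-0.041 to 0.031), crygmxl1 (-0.070 to 0.18) and crygs3 (-0.057 to 0.10). The cause was not tested. The dye term itself was at most 0.098 in size in the called crystallins. Replicate 2 alone had the swapped dye order, so this term cannot be told apart from other differences of that array or its embryos. No paired analysis was possible because each array holds its own comparison with the same pool. Signal over background is unknown, so dim and saturated probes could not be told from the others.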
